A study of Mus musculus with 9 samples.

Results

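Striatal projection neurons are the GABA-releasing neurons that form most of the striatum, and their axons run to the globus pallidus and to the substantia nigra. Neurons of the direct pathway carry the D1 dopamine receptor and make substance P, and neurons of the indirect pathway carry the D2 dopamine receptor and the adenosine receptor encoded by Adora2a, and make enkephalin. In both, the receptors act on cyclic AMP, protein kinase A and the phosphatase inhibitor DARPP-32. Their cell bodies lie in the striatum, outside the midbrain. The marker set holds 9 genes (Drd1, Drd2, Adora2a, Ppp1r1b, Rgs9, Penk, Tac1, Pde10a and Gpr6), chosen by symbol from a deposited table of 55335 genes, and all 9 had a row and passed the filter on low values. They were followed through single libraries of a mouse study of the substantia nigra, a midbrain nucleus whose dopaminergic neurons degenerate in Parkinson disease.

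The study has 3 groups of 3 libraries. MPTP plus running mice were given MPTP, which is toxic to dopaminergic neurons, by intraperitoneal injection at 20 mg/kg, with 2 injections a week over 5 weeks, and had 2 months of voluntary wheel running that began after the first injection. MPTP mice received the same injections without the wheel. Vehicle mice received saline on the same schedule. The labels and design text used here do not state strain, age or sex. The design text names the tissue as substantia nigra and gives 3 mice to a group, while the library labels say brain tissue. No label says that each library came from a mouse of its own, so the p-values cover only the spread between libraries, which may be technical. Values are FPKM, fragment counts scaled to transcript length and to sequencing depth. Levels of different genes can therefore be set side by side.

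Sequencing depth, read from the steps between low values, was near 22060000 to 26760000 fragments a library, and 13413 to 13965 genes reached 1 FPKM in a library. Among markers of the tissue named in the design text, Th, the rate-limiting enzyme of dopamine synthesis, ranged over 1.64 to 15.6 FPKM between libraries. Slc6a3, the dopamine transporter, ranged from a listed 0 in MPTP plus running replicate 2 to 14.4 FPKM in MPTP replicate 3. Pitx3, a transcription factor of midbrain dopaminergic neurons, was listed at 0 in 5 of the 9 libraries and reached at most 0.187 FPKM. Slc6a3 and Pitx3 are given here after their values were seen. With Th, the dopaminergic genes of the list with the highest mean FPKM were Aldh1a1, Ddc and Slc18a2, none of them listed at 0 in a library. Aldh1a1 ranged over 22.1 to 46.8 FPKM, Ddc over 2.48 to 11.9 FPKM and Slc18a2 over 1.46 to 10.7 FPKM. Libraries of the same group thus differed in dopaminergic markers, to an extent that depended on the gene.

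Cyclic AMP, on which the receptors of these neurons act, works on genes through the cyclic AMP response element (TGACGTCA). The promoters of the receptor Gpr6 and of the peptide precursor Tac1 are shown because they held a match to this element or to a part of it. RefSeq promoters on GRCm38.p6, windows from 250 bases before to 50 bases after a start, were present for 6 of the 9 genes in 8 windows; Adora2a, Ppp1r1b and Penk had none in the table. Capitals mark matches of the shorter core of the element, TGACG or, on the other strand, CGTCA, and in Gpr6 the 2 cores overlap and make up the full element. The Gpr6 stretch lies at chr10:41072336-41072393 on the minus strand and the Tac1 stretch at chr6:7554839-7554893 on the plus strand.
Gpr6: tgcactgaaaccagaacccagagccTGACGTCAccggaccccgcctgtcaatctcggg
Tac1: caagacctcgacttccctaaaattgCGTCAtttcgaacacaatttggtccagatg
The full element was found in 1.79% of the 32851 promoter windows of this length, and a core in 20.8% of them. Tac1 held a second core nearer to the RefSeq start, and the windows of Drd1, Drd2, Rgs9 and Pde10a held none. In GENCODE the Tac1 gene begins at chr6:7554879, within the stretch shown, so the second core lies inside the gene as annotated there. Whether the marker promoters hold more matches than other promoters was not tested. A match is a stretch of letters and says nothing of whether a factor binds there.

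Across all 9 genes the libraries fell in nearly the same order, and that order did not follow the groups. MPTP plus running replicate 2, MPTP replicate 1, vehicle replicate 1 and vehicle replicate 3 held the 4 highest values of every one of the 9 genes. MPTP replicate 2 held the lowest value of 8 genes, and vehicle replicate 2 that of Ppp1r1b. Each group thus held at least 1 library of the high set and at least 1 outside it. In bulk tissue, fewer cells of a type and less RNA per cell cannot be told apart.

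**Figure D1:**
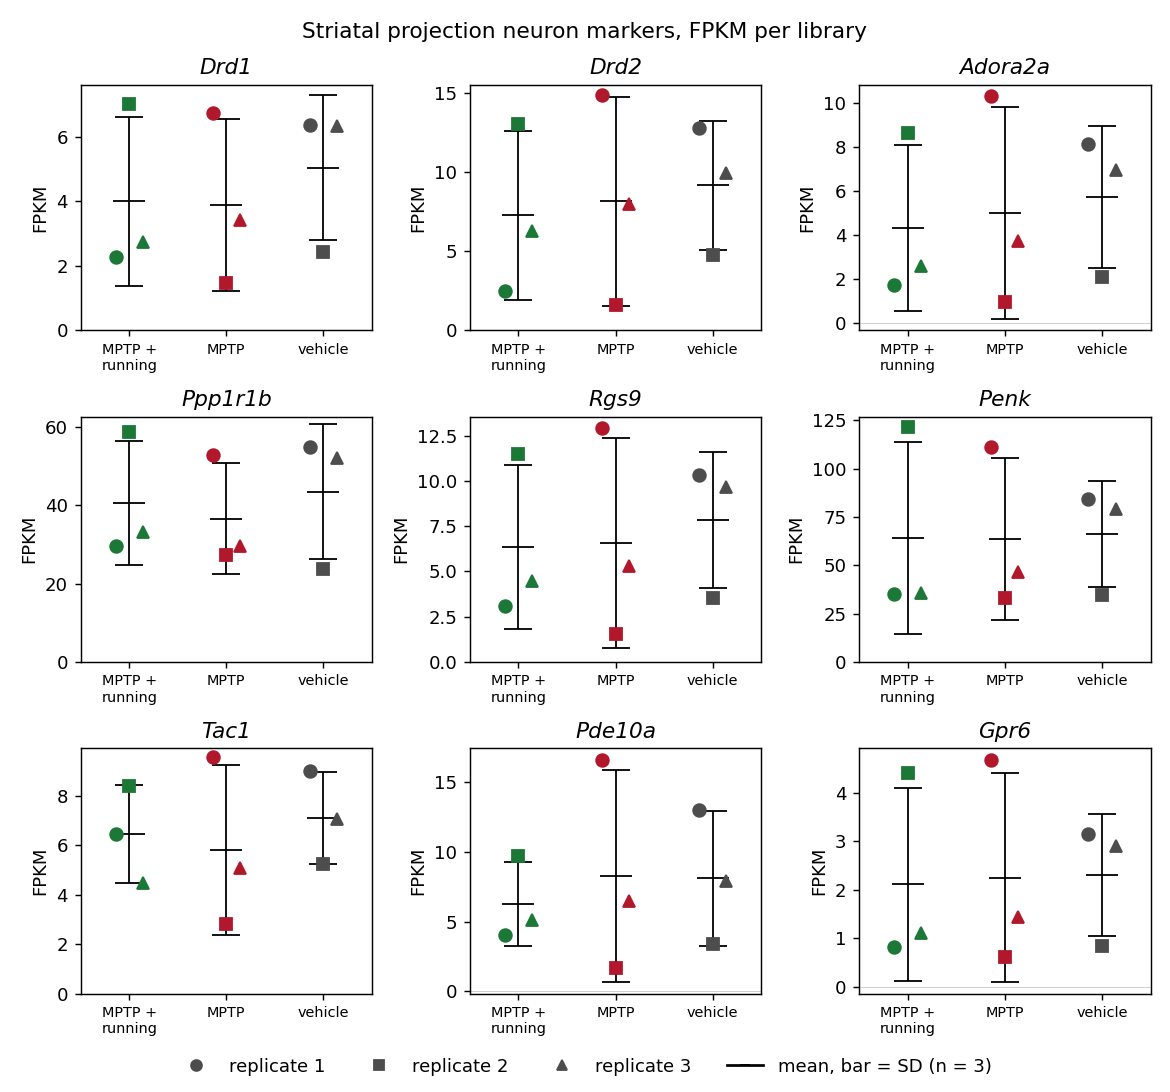
FPKM of each of the 9 genes (vertical axes, starting at or just below 0, scaled per gene) in the 3 libraries of MPTP plus running, MPTP and vehicle mice, with group means and SD. In every panel MPTP plus running replicate 2, MPTP replicate 1 and vehicle replicates 1 and 3 are the 4 highest points, and the bars of the 3 groups overlap.

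Of the receptors, Drd1, the dopamine receptor that raises cyclic AMP in direct pathway neurons, stood at 2.25, 7.0 and 2.72 FPKM in MPTP plus running replicates 1, 2 and 3, at 6.74, 1.46 and 3.42 FPKM in MPTP replicates 1, 2 and 3, and at 6.35, 2.43 and 6.33 FPKM in vehicle replicates 1, 2 and 3. Drd2, the dopamine receptor that lowers cyclic AMP in indirect pathway neurons and also serves dopaminergic neurons as an autoreceptor, stood at 2.49, 13.0 and 6.26 FPKM in MPTP plus running mice, at 14.9, 1.61 and 7.99 FPKM in MPTP mice and at 12.8, 4.78 and 9.93 FPKM in vehicle mice. For both dopamine receptors MPTP replicate 2 was lowest and the groups overlapped throughout. Slc6a3, the dopamine transporter, stood at 0.149, 0 and 10.6 FPKM in MPTP plus running replicates 1, 2 and 3, at 2.75, 0.038 and 14.4 FPKM in MPTP replicates 1, 2 and 3, and at 3.40, 1.41 and 10.8 FPKM in vehicle replicates 1, 2 and 3. The 3 libraries lowest in Drd2 were also low in Slc6a3, while MPTP plus running replicate 2 was high in Drd2 with Slc6a3 listed at 0. Other dopaminergic genes went both ways in MPTP plus running replicate 2. Nr4a2 was there at 1.40 FPKM, its lowest value, against a mean of 3.77 FPKM, and Pitx3, Foxa1 and Foxa2 were listed at 0. En1, Chrna6 and Sox6 were below their means there, and Lmx1b and Ret above theirs. These genes are named after their values were seen. Of the 4 dopaminergic genes with the highest mean FPKM, Aldh1a1, Ddc and Slc18a2 were there at 46.8, 8.20 and 9.64 FPKM. Their means over the 9 libraries were 34.2, 7.31 and 6.52 FPKM. Th was at 5.35 FPKM there, below its mean of 6.52 FPKM. The part of dopaminergic neurons in the level of Drd2 was not tested. The ratio of Drd1 to Drd2 lay between 0.429 and 0.908 over the 9 libraries (median 0.509) and was highest in MPTP replicate 2 and MPTP plus running replicate 1 (0.903), the libraries where Drd2 was lowest.

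Adora2a, the adenosine receptor that opposes Drd2 in indirect pathway neurons, stood at 1.73, 8.64 and 2.61 FPKM in MPTP plus running mice, at 10.3, 0.942 and 3.74 FPKM in MPTP mice and at 8.17, 2.09 and 6.97 FPKM in vehicle mice. Its highest value within the MPTP group was 11 times its lowest, the widest such range among the 9 genes in any group. The ratio of Adora2a to Drd2, which share their neurons in the striatum, stayed within 0.417 to 0.702. Gpr6, an orphan receptor of indirect pathway neurons that raises cyclic AMP without added ligand, was the lowest of the 9 genes, at 0.825, 4.41 and 1.10 FPKM in MPTP plus running mice, at 4.69, 0.604 and 1.45 FPKM in MPTP mice and at 3.14, 0.851 and 2.90 FPKM in vehicle mice. It showed the same 4 high libraries.

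Of the genes that act inside the cell, Ppp1r1b, which encodes DARPP-32, stood at 29.7, 58.8 and 33.3 FPKM in MPTP plus running mice, at 53.0, 27.4 and 29.5 FPKM in MPTP mice and at 54.9, 23.7 and 52.0 FPKM in vehicle mice. It varied less than the receptors, and its highest value within a group was 1.94 to 2.31 times its lowest. Its exons share 460 bases with an antisense transcript, 1700003D09Rik, which was at 0.199 to 1.5 FPKM. Whether the counting used strand is not stated, so reads over those bases cannot be assigned with certainty. Rgs9, which speeds the shut-off of inhibitory G proteins below Drd2, stood at 3.07, 11.5 and 4.48 FPKM in MPTP plus running mice, at 13.0, 1.52 and 5.28 FPKM in MPTP mice and at 10.3, 3.51 and 9.65 FPKM in vehicle mice. Pde10a, the phosphodiesterase that breaks down cyclic AMP and cyclic GMP in both kinds of projection neuron, stood at 4.02, 9.67 and 5.09 FPKM in MPTP plus running mice, at 16.6, 1.69 and 6.45 FPKM in MPTP mice and at 13.0, 3.36 and 7.92 FPKM in vehicle mice. Both had their highest value in MPTP replicate 1 and their lowest in MPTP replicate 2.

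Of the peptide precursors, Penk, from which the enkephalins of indirect pathway neurons are cut, was the highest of the 9 genes, at 35.0, 122 and 35.7 FPKM in MPTP plus running mice, at 111, 33.1 and 46.5 FPKM in MPTP mice and at 84.3, 34.4 and 79.4 FPKM in vehicle mice. It fell into a high set and a low set with no library between 46.5 and 79.4 FPKM. Penk shares 233 exonic bases with the antisense transcript A830012C17Rik, which was at 0 to 0.377 FPKM. Tac1, the precursor of substance P and neurokinin A in direct pathway neurons, stood at 6.48, 8.43 and 4.49 FPKM in MPTP plus running mice, at 9.57, 2.82 and 5.08 FPKM in MPTP mice and at 9.01, 5.26 and 7.09 FPKM in vehicle mice. Among the 9 genes it followed the shared order least tightly within MPTP plus running mice, where replicate 1 stood above replicate 3, and the ratio of Penk to Tac1 ranged over 5.40 to 14.4.

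In order of mean FPKM over the 9 libraries, Penk (64.6 ± 35.3, SD, n = 9) and Ppp1r1b (40.3 ± 14) came first, and Penk was above Ppp1r1b in 9 of 9 libraries although their ranges overlap. Ppp1r1b and the next gene, Drd2 (8.20 ± 4.79), had ranges that do not overlap. Drd2, Pde10a (7.54 ± 4.85), Rgs9 (6.92 ± 4.20), Tac1 (6.47 ± 2.26), Adora2a (5.02 ± 3.51) and Drd1 (4.30 ± 2.25) differed from their neighbours by less than their SD, with the higher of a pair above the lower in 5 to 7 of 9 libraries. Gpr6 (2.22 ± 1.60) was below Drd1 in 9 of 9 libraries.

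MPTP against vehicle shows the genes after the toxin alone. All 9 genes had a lower mean log2 level in MPTP mice, by log2 fold changes of −0.43 (Rgs9) to −0.14 (Penk) on the log2(FPKM + 1) scale, with a median of −0.35 beside −0.01 over all 15997 genes tested. None passed the test (limma with Benjamini-Hochberg adjustment over all genes), where 0.0125% of all genes did (2 genes, neither of them a marker here). The smallest unadjusted p was 0.356, for Tac1 (5.82 ± 3.44 FPKM in MPTP and 7.12 ± 1.87 FPKM in vehicle mice, SD, n = 3 each), with a log2 fold change of −0.35 ± 0.36 (SE) and an adjusted p = 0.991 from limma. The MPTP and vehicle values of all 9 genes overlapped, and over all genes 9.43% did not overlap. Drd2 averaged 8.16 ± 6.63 FPKM in MPTP and 9.18 ± 4.07 FPKM in vehicle mice, and the 95% interval of its difference ran from −2.01 to 1.19 log2 units, so changes of 2 log2 units downward and more than 1 upward remain within it. Leaving out MPTP replicate 2 turned the median of the 9 genes to 0.23, leaving out MPTP replicate 1 took it to −0.79, leaving out vehicle replicate 2 took it to −0.66, and without vehicle replicate 1 or 3 it was −0.07 or −0.18.

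MPTP plus running against MPTP sets apart the wheel, since both groups had the toxin. Of the 9 genes 4 had a higher and 5 a lower mean log2 level in running mice, within −0.06 (Penk) to 0.22 (Tac1), with a median of −0.02 beside −0.01 over all genes tested. None of the 9 passed, and neither did any other gene (0% of all genes in limma, 639 at an unadjusted p under 0.05). The groups of all 9 genes overlapped, beside 8.02% of all genes that did not overlap. Tac1 averaged 6.46 ± 1.97 FPKM in MPTP plus running and 5.82 ± 3.44 FPKM in MPTP mice (SD, n = 3 each), with a log2 fold change of 0.22 ± 0.36 (SE) and an adjusted p = 0.9999 from limma. Leaving out a single MPTP library moved the median of the 9 genes to 0.55 (replicate 1), −0.44 (replicate 2) or 0.02 (replicate 3), and leaving out a running library moved it to 0.32 (replicate 1), −0.36 (replicate 2) or 0.22 (replicate 3).

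MPTP plus running against vehicle sets mice with both exposures beside mice with neither, and it shares libraries with the other comparisons. All 9 genes had a lower mean log2 level in running mice, by −0.43 (Drd2) to −0.07 (Ppp1r1b), with a median of −0.25 beside −0.02 over all genes tested. None passed (0% of all genes in limma, 1047 at an unadjusted p under 0.05), and all 9 overlapped, beside 15.6% of all genes that did not. Drd2 averaged 7.26 ± 5.34 FPKM in MPTP plus running and 9.18 ± 4.07 FPKM in vehicle mice, with a log2 fold change of −0.43 ± 0.70 (SE) and an adjusted p = 0.905 from limma. The median turned to 0.02 without running replicate 1 and 0.03 without vehicle replicate 1, and went to −0.71 without running replicate 2, −0.68 without vehicle replicate 2, −0.16 without running replicate 3 and −0.13 without vehicle replicate 3.

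**Figure D2:**
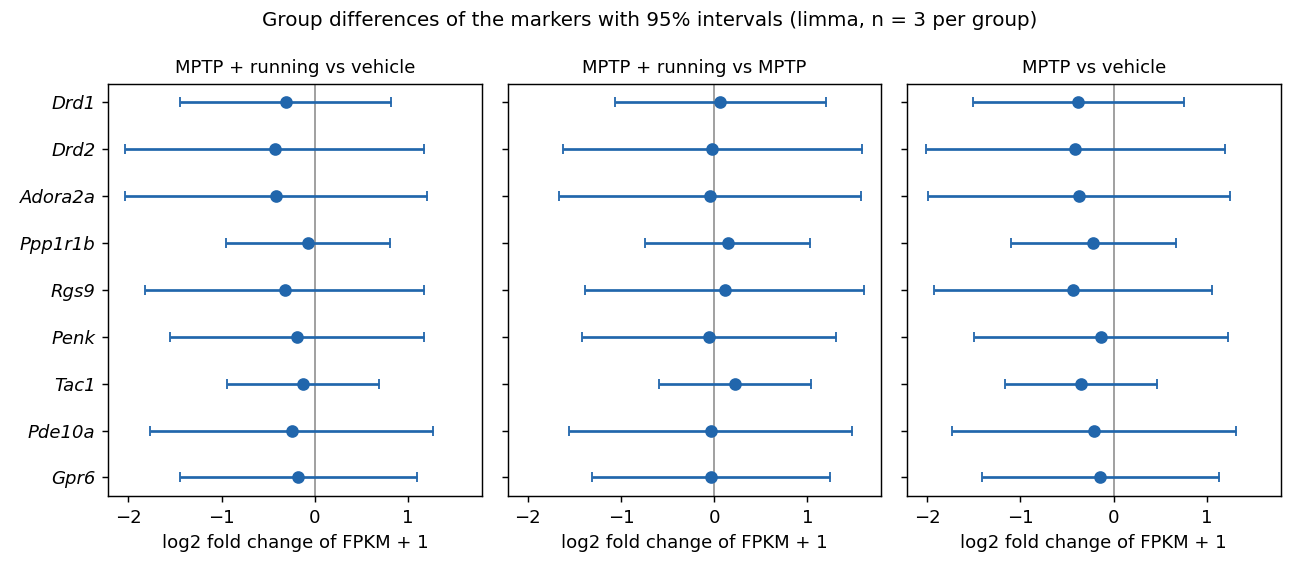
Log2 fold changes of FPKM + 1 (horizontal axis) of the 9 genes in the 3 comparisons, with 95% intervals from limma; a positive value is higher in the group named before vs. Every interval crosses 0, and the intervals of Drd2, Adora2a, Pde10a and Rgs9 are the widest, that of Drd2 reaching from −2.01 to 1.19 for MPTP against vehicle.

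The spread between libraries of a group was large for these genes. The residual SD of log2(FPKM + 1), after group means were taken out, was 0.52 (Tac1) to 1.04 (Adora2a), against a median of 0.16 over all 15997 genes tested, and the 9 genes stood between the 95.6 and the 99.6 percentile of all genes. Group means accounted for 1.28% (Penk) to 10.4% (Tac1) of a gene's variance over the 9 libraries, where the median over all genes was 20.9%. Differences between libraries of the same group were thus larger for these genes than the differences between group means. A large spread was not particular to these genes. The residual SD ran from 0.39 (Plekhg1) to 1.88 (Prkcd) over thalamic markers and from 0.10 (Cux2) to 1.45 (Neurod6) over cortical and hippocampal markers. It ran from 0.14 (Sox6) to 1.74 (Slc6a3) over the dopaminergic markers tested and from 0.32 (Enpp2) to 2.12 (Ttr) over choroid plexus markers.

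**Figure D3:**
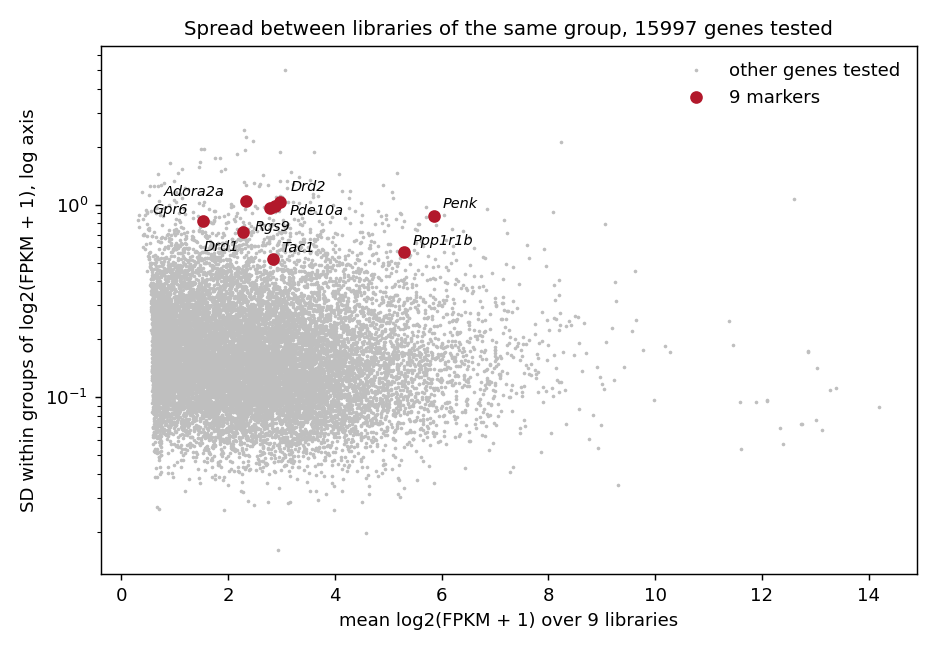
SD within groups of log2(FPKM + 1) (vertical log axis) against mean log2(FPKM + 1) over the 9 libraries (horizontal axis) for the 15997 genes tested. The 9 markers (red) lie along the upper edge, between 0.52 for Tac1 and 1.04 for Adora2a, over a range of mean levels.

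The 9 genes varied together. Over their 36 pairs, Pearson's r of log2(FPKM + 1) across the 9 libraries ran from 0.80 to 0.99 with a median of 0.94, and Spearman's rho from 0.77 to 1 with a median of 0.97. Without the 2 libraries farthest from the median of the set, MPTP plus running replicate 2 and MPTP replicate 1, the median r was 0.92. These values are a description of 9 libraries that share their scaling, and genes of 1 library are not independent of each other.

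The same pattern was found in other genes known from the striatum. Of 11842 protein-coding genes with an official symbol and a mean of at least 1 FPKM outside the set, the 10 whose level was most like the mean of the 9 standardised markers had r of 0.951 to 0.997 over the 9 libraries, and 6 of the 10 are on a list of 19 other projection neuron genes. Pde1b, a calmodulin-dependent phosphodiesterase, was most alike (r = 0.997), at 23.1, 43.1 and 26.0 FPKM in MPTP plus running mice, at 44.4, 19.2 and 28.3 FPKM in MPTP mice and at 42.4, 25 and 37.9 FPKM in vehicle mice. Rasd2, a small GTPase also known as Rhes, followed with r = 0.99. Rarb and Rxrg, retinoid receptors, and Syndig1l, also on that list, had r of 0.99, 0.95 and 0.99.

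The 4 genes of the 10 that were on no list were Cd4, Phtf1, Strn and Ric8b. Cd4, the coreceptor of helper T cells, stood at 0.439, 2.57 and 0.728 FPKM in MPTP plus running mice, at 2.90, 0.110 and 0.872 FPKM in MPTP mice and at 1.78, 0.430 and 1.69 FPKM in vehicle mice (r = 0.99), and its libraries ranked exactly as the mean of the standardised markers did (Spearman's rho of 1). Strn, the scaffold protein striatin (r = 0.95), ranged over 9.11 to 15.3 FPKM, and Ric8b, a chaperone of the olfactory-type stimulatory G protein that serves Drd1 and Adora2a in the striatum (r = 0.95), over 8.60 to 13.2 FPKM. Phtf1 (r = 0.96) ranged only over 4.79 to 5.49 FPKM.

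**Figure D4:**
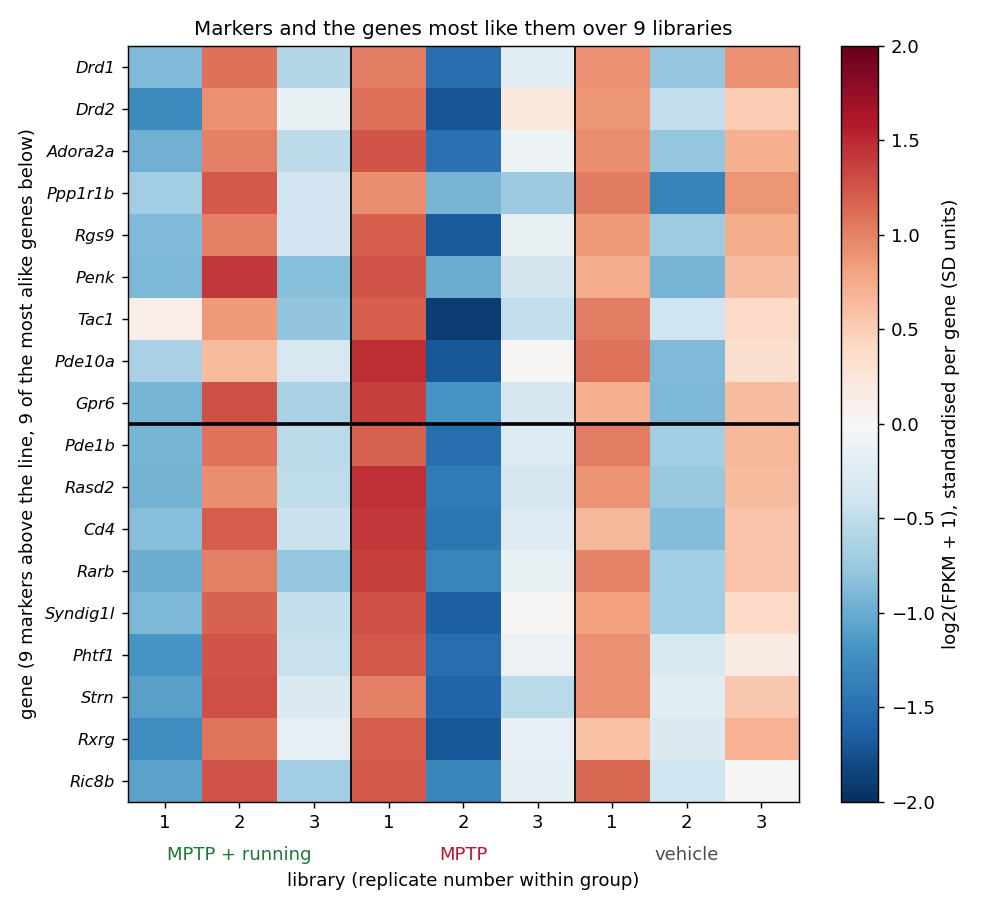
Log2(FPKM + 1) standardised per gene (colour, in SD units) of the 9 markers (above the line) and 9 of the 10 most alike genes (below it) in the 9 libraries, which run along the horizontal axis by group and replicate. MPTP plus running replicate 2, MPTP replicate 1 and vehicle replicates 1 and 3 are red in nearly all rows and MPTP replicate 2 is blue in all of them, so each group holds libraries of both colours.

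Among the 19 wider projection neuron genes 9 had r over 0.9 with the markers (47.4%), where 0.211% of the 11842 genes did, and the median r was 0.83 beside 0.07. Adcy5, the adenylyl cyclase of the striatum, was at 15.5, 29.8 and 20.7 FPKM in MPTP plus running mice, at 33.8, 13.4 and 25.5 FPKM in MPTP mice and at 33.8, 20.2 and 32.8 FPKM in vehicle mice (r = 0.95). Scn4b, a sodium channel subunit with the highest mean level on the list, followed less closely (r = 0.73), at 29.0, 100.5 and 25.8 FPKM in MPTP plus running mice, 82.1, 37.8 and 29.8 FPKM in MPTP mice and 68.8, 48.6 and 38.3 FPKM in vehicle mice. Not all listed genes shared the pattern. Bcl11b (r = 0.28), Arpp21 (r = 0.19) and Foxp1 (r = −0.50) had the lowest r of the 19 and are named here after their values were seen. In none of the 3 comparisons did any of the 19 pass the test, with 1 higher and 18 lower in MPTP against vehicle (median −0.22), 11 higher and 8 lower in MPTP plus running against MPTP (median 0.03) and 3 higher and 16 lower in MPTP plus running against vehicle (median −0.20).

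The other genes of the direct pathway followed less closely. Of 7, only Slc35d3, a protein of direct pathway neurons, had r over 0.9 (0.93; 0.729 to 2.98 FPKM), and their median r was 0.33. The prodynorphin gene Pdyn, whose peptides are made by direct pathway neurons, had r = 0.33, at 5.58, 4.87 and 4.66 FPKM in MPTP plus running mice, 5.95, 5.11 and 4.51 FPKM in MPTP mice and 4.44, 3.57 and 7.43 FPKM in vehicle mice. The muscarinic receptor gene Chrm4, the highest of the 7 by mean level with Pdyn and Sfxn1, had r = −0.22. Of 5 other genes of the indirect pathway 3 were tested, with r of 0.08 to 0.18. None of the genes of these lists passed the test in any comparison.

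The signalling partners of the markers, 29 genes of which 26 were tested, had r above 0 for 14 and below 0 for 12, with a median of 0.02 and none over 0.9. The most abundant, the protein kinase A subunits Prkar1a (153 to 170 FPKM) and Prkaca (64.4 to 88.5 FPKM) and the phosphatase subunit genes Ppp3ca (53.3 to 97.6 FPKM) and Ppp2ca (43.0 to 52.9 FPKM), had r of 0.23, 0.17, −0.73 and −0.26. Tacr1, the receptor of substance P, was the partner with the highest r (0.83), and is named here after its values were seen. None of the 26 passed the test in any comparison, with 11, 15 and 14 higher in MPTP against vehicle, MPTP plus running against MPTP and MPTP plus running against vehicle.

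Markers of other tissue moved with the libraries too. The 11 genes of cortical and hippocampal excitatory neurons had a median r of −0.77 with the striatal markers and 10 of the 11 were below 0. Their summed level was 317 to 846 FPKM in MPTP plus running, 443 to 1034 FPKM in MPTP and 183 to 702 FPKM in vehicle libraries, and it was lowest, within each group, in MPTP plus running replicate 2, MPTP replicate 1 and vehicle replicate 1. Slc17a7, the glutamate transporter of these neurons, was at 45.5, 42.9 and 20.9 FPKM in these libraries. Immediate early genes also ran against the markers, with r below 0 for 8 of 8 and a median of −0.57.

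Thalamic markers (9 genes) did not share the order, with a median r of 0.14 and sums of 13.7 to 85.1 FPKM in MPTP plus running, 19.6 to 117 FPKM in MPTP and 19.9 to 151 FPKM in vehicle libraries. Choroid plexus markers (12 genes) had a median r of −0.16 and sums of 95 to 1061 FPKM in MPTP plus running, 1097 to 2302 FPKM in MPTP and 107 to 419 FPKM in vehicle libraries. Dopaminergic markers (14 genes, 11 tested) had a median r of 0.45 and sums of 54.1 to 83.0 FPKM in MPTP plus running, 49.2 to 104 FPKM in MPTP and 55.4 to 83.3 FPKM in vehicle libraries, and midbrain GABA markers (11 genes) a median r of 0.46. Forebrain GABA neuron identity genes and interneuron genes (11, of which 10 were tested) had a median r of −0.06, hypothalamic genes (9, of which 5 were tested) of 0.19 and glial and vessel genes (10) of 0.26. In none of these lists did a gene have r over 0.9. The part of these markers in the differences between libraries was not tested.

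**Figure D5:**
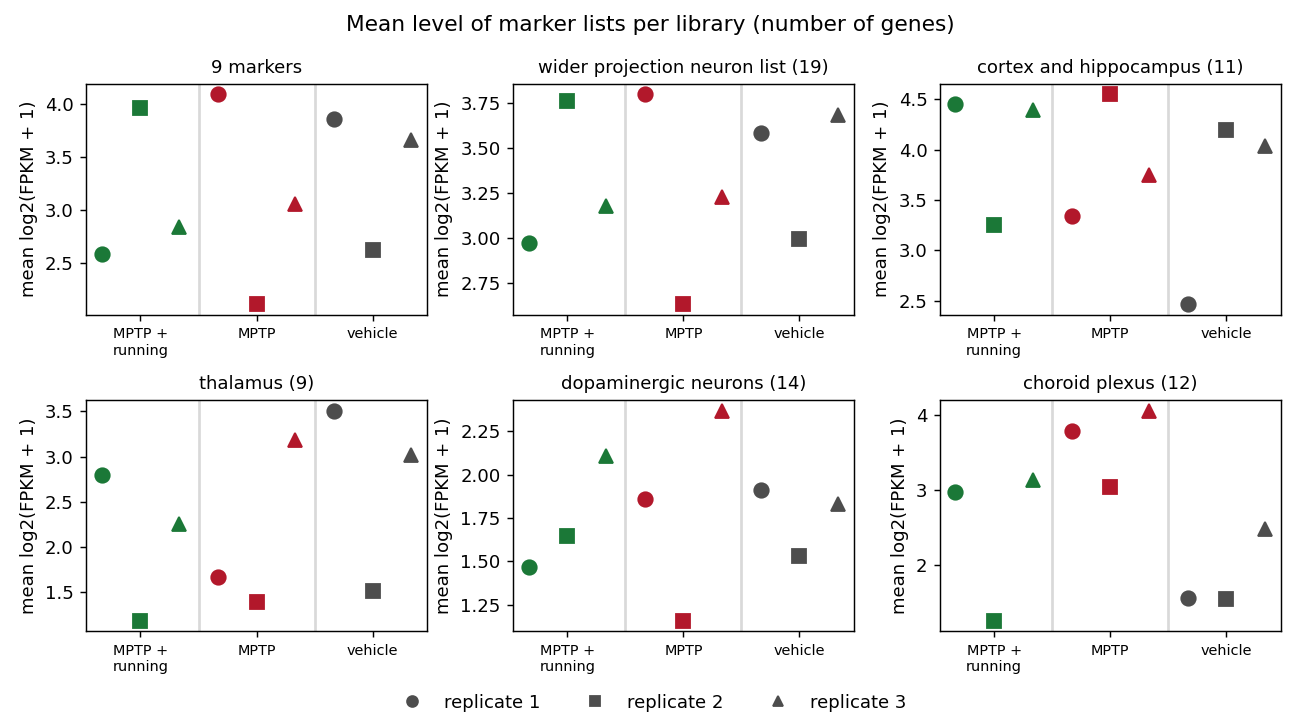
Mean log2(FPKM + 1) (vertical axes, not starting at 0) of 6 marker lists in each of the 9 libraries, by group along the horizontal axis with replicate number as symbol. The 9 markers and the wider projection neuron list share their high libraries, while cortical and hippocampal genes are lowest in vehicle replicate 1, MPTP plus running replicate 2 and MPTP replicate 1, and thalamic, dopaminergic and choroid plexus genes have other orders.

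With the mean level of the 19 wider genes as a covariate, an alternative chosen after the data were seen, SEs of the 9 markers in the 3 comparisons were 0.09 to 0.24, against 0.36 to 0.71 without it. The log2 fold changes then lay between −0.15 (Tac1) and 0.23 (Penk) for MPTP against vehicle and between −0.23 (Adora2a) and 0.14 (Tac1) for MPTP plus running against MPTP. For MPTP plus running against vehicle they lay between −0.18 (Drd2) and 0.06 (Ppp1r1b). None of the 9 passed the test in this fit either, with a smallest unadjusted p of 0.0777 for Adora2a in MPTP plus running against MPTP (limma adjusted p = 0.9998).

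By position on GRCm38, in GENCODE M21, all 9 are protein-coding genes and they lie on 7 chromosomes. Drd1 (ENSMUSG00000021478) lies at chr13:54051183-54055705 on the minus strand, Drd2 (ENSMUSG00000032259) at chr9:49340627-49408177 on the plus strand and Adora2a (ENSMUSG00000020178) at chr10:75316877-75334784 on the plus strand. Gpr6 (ENSMUSG00000046922) lies on the same chromosome as Adora2a at chr10:41069977-41072285 on the minus strand. Ppp1r1b (ENSMUSG00000061718) lies at chr11:98348404-98357796 on the plus strand and Rgs9 (ENSMUSG00000020599) on the same chromosome at chr11:109225355-109298129 on the minus strand. Pde10a (ENSMUSG00000023868) lies at chr17:8525372-8986648 on the plus strand, Penk (ENSMUSG00000045573) at chr4:4133531-4138819 on the minus strand and Tac1 (ENSMUSG00000061762) at chr6:7554879-7565834 on the plus strand. Apart from Ppp1r1b and Penk, none shares exonic bases with another annotated gene.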

How the data were processed

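The authors deposited FPKM for 55335 genes in 9 mouse libraries, used here as deposited. Per the labels' protocols, bead-enriched mRNA was fragmented and made into Illumina libraries. Per the submitters' processing notes, bcl2fastq, HTSeq, DESeq2 and GRCm38 were used. The aligner and the FPKM tool are not stated. Symbols came from GENCODE M21, with 55154 genes matched.

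The 15997 genes averaging 0.5 FPKM or more were tested in limma (trend option) on log2(FPKM + 1), with all 9 libraries in 1 fit, two-sided p and Benjamini-Hochberg adjustment at 0.05. Such fold changes understate the change of low genes. Intervals cover 95%. Fragment numbers were estimated from 19516 genes with 1 transcript over 500 bases, where 37.6% to 40.3% of low values came within 2% of whole steps. The fit was checked on simulated data. The members and lists were chosen with earlier results of these data known, and the list symbol Gpr52 had no match. Named genes are the 9 members, any listed gene past the threshold, up to 4 genes of each other list with the highest mean FPKM, and the 10 genes whose level was most like the mean of the standardised members, of which 1 is not reported here. The replicate numbers carry no stated meaning. MPTP and vehicle libraries of the same number deviated together in all 3 pairs (r = 0.25, 0.33 and 0.11), those with running libraries did not in every pair. Alternatives changed the pseudocount, filter, scaling, weights, libraries, block and covariate. The software was R 4.3.3, limma 3.58.1, Python 3.11.15, pandas 2.3.3, numpy 2.4.6 and matplotlib 3.10.9.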

Additional observations from a re-analysis of the deposited data

How the results depend on the processing

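In 486 refits of the 9 markers over 18 settings none passed the test (limma adjusted p from 0.684 to 1). In 77 the sign turned, 50 of them among the 243 that left out a library. Many of the refits could not turn a sign, so these counts understate how readily the signs turn. Changing the filter on mean FPKM or taking only the 6 libraries compared leaves each log2 fold change as it was. So does leaving out a library of the group not compared, and so does the block. Each replicate number occurs once in each group, so a fit with it as a block cannot move a log2 fold change, only its error. That fit gave 3, 0 and 0 genes past the threshold over all genes, against 2, 0 and 0 without it, in MPTP against vehicle, MPTP plus running against MPTP and MPTP plus running against vehicle. The sign of these differences is not settled by 3 libraries a group. The ranges that follow are those of genes whose sign turned when a single library was left out. In these refits the sign held for Ppp1r1b in MPTP against vehicle, and for Drd1 and Adora2a in MPTP plus running against vehicle. Without single libraries, log2 fold changes for MPTP against vehicle ran over −0.79 to 0.038 (Drd1), −0.98 to 0.32 (Drd2), −1.0 to 0.27 (Adora2a), −1.04 to 0.20 (Rgs9), −0.63 to 0.23 (Penk), −0.73 to 0.0079 (Tac1), −0.87 to 0.49 (Pde10a) and −0.65 to 0.27 (Gpr6). For MPTP plus running against MPTP they ran over −0.35 to 0.48 (Drd1), −0.75 to 0.55 (Drd2), −0.68 to 0.59 (Adora2a), −0.15 to 0.44 (Ppp1r1b), −0.52 to 0.72 (Rgs9), −0.64 to 0.44 (Penk), −0.14 to 0.60 (Tac1), −0.74 to 0.62 (Pde10a) and −0.52 to 0.47 (Gpr6). For MPTP plus running against vehicle they ran over −0.92 to 0.079 (Drd2), −0.45 to 0.14 (Ppp1r1b), −0.79 to 0.021 (Rgs9), −0.78 to 0.11 (Penk), −0.32 to 0.074 (Tac1), −0.70 to 0.14 (Pde10a) and −0.66 to 0.12 (Gpr6). Array weights gave MPTP replicate 2 the lowest weight (0.440) and MPTP replicate 1 the highest (1.85). With them all 9 turned for MPTP against vehicle, to 0.13 (Drd1), 0.31 (Drd2), 0.39 (Adora2a), 0.16 (Ppp1r1b), 0.28 (Rgs9), 0.42 (Penk), 0.054 (Tac1), 0.59 (Pde10a) and 0.42 (Gpr6). Under the same weights 4 turned for MPTP plus running against MPTP, to −0.47 (Drd1), −0.20 (Ppp1r1b), −0.62 (Rgs9) and −0.21 (Tac1). A pseudocount of 0.1 turned Drd2 (0.022), Adora2a (0.019) and Pde10a (0.030) for MPTP plus running against MPTP. The covariate turned Drd2 (0.022), Adora2a (0.082), Ppp1r1b (0.0091), Penk (0.23), Pde10a (0.20) and Gpr6 (0.21) for MPTP against vehicle, Drd1 (−0.063) and Rgs9 (−0.061) for MPTP plus running against MPTP, and Ppp1r1b (0.060), Penk (0.019) and Gpr6 (0.028) for MPTP plus running against vehicle. The cause of these turns was not tested. Over all genes, the count past the threshold for MPTP against vehicle was 0 with only the 6 libraries of the groups compared and 0 to 32 without single libraries (32 without MPTP replicate 1). For MPTP plus running against MPTP it was 3 with no filter on mean FPKM, 1 after rescaling to equal sums, 1 under array weights and 0 to 25 without single libraries (25 without MPTP replicate 1), and for MPTP plus running against vehicle 0 to 2 without single libraries.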
